A study of Bos taurus with 6 samples.

Results

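The genes of the constitutive proteasome were taken as every gene whose symbol starts with PSMA, PSMB, PSMC, PSMD, PSME, PSMF or PSMG, without the immunoproteasome genes PSMB8, PSMB9 and PSMB10. The rule found 46 of the 19163 genes in the count table, and 45 of them had enough counts to be tested. PSMA8, an alpha subunit known from the testis, had 0 counts in all 6 libraries and was the only member that was not tested. PSMB11, the beta subunit of the thymus, was not analysed here. A pair of matches are not parts of the proteasome by function, namely PSMC3IP and PSME3IP1, and they were kept because the symbol rule includes them.

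The proteasome is the protease of the cytoplasm and nucleus that degrades proteins carrying ubiquitin chains. Its 20S core is a barrel made of alpha rings, which gate the entry, and beta rings, which hold the active sites. The 19S particle caps the barrel, with ATPases that unfold the substrate and non-ATPase subunits that bind ubiquitin and remove it. Assembly chaperones build both particles, and other activators can take the place of the 19S cap.

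The cells were of the line F7, which are bovine embryonic stem cells (bESCs) derived from Holstein Friesian embryos made by in vitro fertilization, and RNA was taken at passage 15 in both groups. MC-F7 cells grew on mouse embryonic fibroblasts whose division had been stopped with mitomycin C, and MT-F7 cells grew on the same kind of feeder killed by methanol fixation. The medium was changed every day for MC-F7 and every other day for MT-F7, so feeder and medium schedule cannot be told apart. Before RNA extraction the dissociated cells were left on a gelatin dish so that fibroblasts could attach, and the floating cells were collected. The paper reports that a smaller share of MC-F7 than of MT-F7 reads aligned to the bovine genome. It proposes that fixed feeders lowered the contamination by feeder cells. The part of mouse reads in the values below was not tested. Each group had 3 libraries of a single line, and whether these came from separate cultures is not stated, so that the spread between them may be technical.

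The libraries held 21958386 to 24933430 counted reads, and the lowest count of any tested member in any library was 40, for PSMD10. In every library 31 members had at least 1000 counts. Genes of the mitochondrial genome took 16.3% to 28.3% of the counts of a library, with the highest share in replicate 3 of each group. Of 7 pluripotency markers listed for the cells, 5 were in the count table and 4 were lower in MT-F7, among them POU5F1 with a log2 fold change of -1.19 and NANOG with -2.02. The summed level of these markers was 1343 to 2012 counts per 1000000 counts (CPM) in MC-F7 and 738 to 854 CPM in MT-F7, over the 5 markers measured. Of 10 tested fibroblast markers 3 were higher and 1 was lower in MT-F7, the 11 listed genes summed to 222 to 298 CPM in MC-F7 and 338 to 392 CPM in MT-F7, and FAP was at 0 in MT-F7. Of 4 tested leukocyte markers 2 were higher and 1 was lower, with sums of 23.1 to 25.4 CPM in MC-F7 and 32.2 to 37.7 CPM in MT-F7, and CD3E was at 0 in MC-F7. The part of these markers in the values below was not tested. In bulk RNA, fewer cells of a type and less RNA per cell cannot be told apart.

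Levels of different genes were compared on the TPM scale, which divides by gene length, with each library rescaled to 1000000. Among the 31 tested core subunits of the 20S and 19S particles, the highest mean TPM over the 6 libraries were those of PSMA7 (487), PSMA3 (382) and PSMB6 (343). The lowest were those of PSMA1 (30.8), PSMD11 (23.8) and PSMD13 (12.4). Subunits that occur in equal number in the assembled particle therefore had TPM values far apart. The part of read assignment and of the deposited length scale in this range was not tested. Within the alpha ring the range was 15.8-fold, from PSMA1 to PSMA7.

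The beta ring was more even, with a 2.50-fold range from 137 TPM for PSMB5 to 343 TPM for PSMB6 and a median of 254 TPM. The ATPases spanned 3.15-fold, from 73.3 TPM for PSMC6 to 231 TPM for PSMC5. The non-ATPase subunits spanned 14.6-fold, from PSMD13 to PSMD4 (182 TPM), a ubiquitin receptor of the cap. Over all tested members the median was 94.4 TPM and the levels ran from 3.97 TPM for PSMD10 to 822 TPM for PSMG4. The count per unit of TPM of PSMG4 was 0.259 of the members' median, so the deposited scale gives it far more TPM per read than most members. Whether that scale matches the length of PSMG4 was not tested, so its TPM remains uncertain. In the order of levels many neighbours lay within each other's spread. PSMB6, PSMB4 and PSMB3, for example, had mean TPM of 322, 365 and 292 in MC-F7 against 365, 275 and 319 in MT-F7, so that their order differed between the groups.

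**Figure D1:**
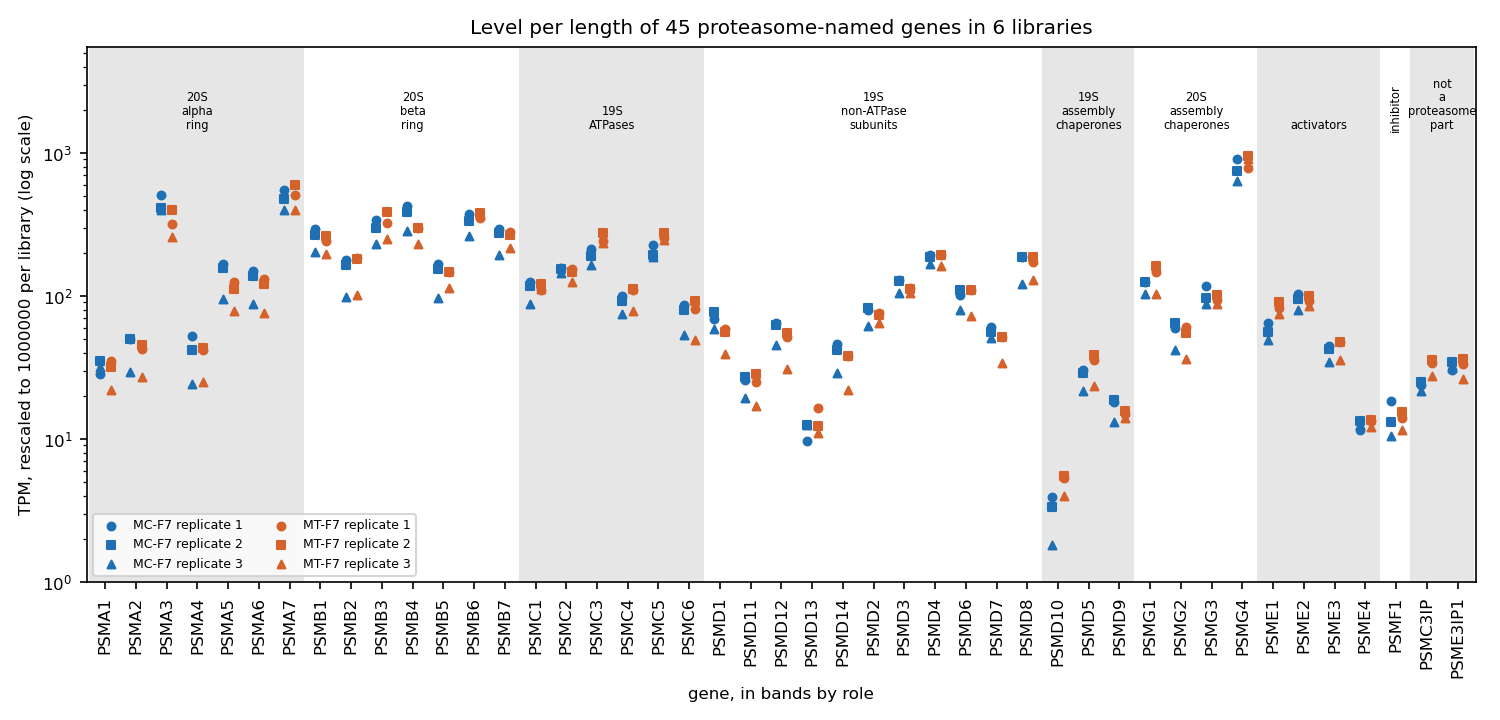
TPM of the 45 tested genes on a log axis, by role, with 1 point for each of the 6 libraries (blue MC-F7, orange MT-F7). Levels of the core subunits run from 12.4 TPM for PSMD13 to 487 TPM for PSMA7 on average, and for most genes the points of both groups lie among each other.

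In MT-F7 against MC-F7, few proteasome genes changed and the changes were small. PSME1, a subunit of a proteasome activator, rose 1.38-fold, while PSMA3 of the alpha ring fell to 0.697 of its MC-F7 level and PSMD1, a large scaffold subunit of the 19S cap, fell to 0.709. These 3 genes are 6.67% of the 45 tested members, where 23.2% of all 13001 tested genes passed the same threshold (edgeR's quasi-likelihood test, adjusted p under 0.05). By direction, 1 member was higher against 11.9% of all genes, and 2 members were lower against 11.3%. At an unadjusted p under 0.05 there were 8 members (17.8%), against 35.8% of all genes. The libraries of both groups did not overlap in CPM for 11 members (24.4%), against 40.0% of all genes. This count depended on the scale. In TPM the groups did not overlap for 6 members (13.3%), against 39.2% of all genes. Of the 6 members with MT-F7 below MC-F7 in CPM only PSMD1 stayed apart, by a narrow gap (58.7 against 59.0 TPM). PSMA3, PSMB4, PSMC2, PSMD3 and PSMD7 overlapped in TPM.

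The fold changes of the proteasome genes stayed close to 0. No member had an absolute log2 fold change over 1, which 13.6% of all tested genes had, and the range ran from -0.52 for PSMA3 to 0.63 for PSMD10. The median absolute log2 fold change was 0.17 for the members and 0.34 for all tested genes, with median standard errors (SE) of 0.171 and 0.202. The 95% interval of the log2 fold change lay within -1 to 1 for 44 of 45 members (97.8%), the exception being PSMD10, and for 61.6% of all genes. For 28 members the interval lay within a 1.5-fold change in either direction. The signs were uneven, with 31 members (68.9%) below 0 against 50.2% of all genes, and the median was -0.09 for the members against 0.00 for all genes. Both values rested on single libraries and on the scale. Without MC-F7 replicate 1 there were 24 members below 0 with a median of 0.00, without MT-F7 replicate 3 there were 27 with -0.02, and without MC-F7 replicate 3 there were 36 with -0.20. Leaving out either MT-F7 replicate 1 or MT-F7 replicate 2 gave 34 members below 0, with medians of -0.15 and -0.14, and the median was -0.06 without MC-F7 replicate 2. In the limma fits on TPM there were 24 members below 0, with medians of -0.01 and 0.00, against 0.02 to 0.06 over all genes. Since the members were chosen as 1 functional group and share libraries, this share is a description of these libraries.

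**Figure D2:**
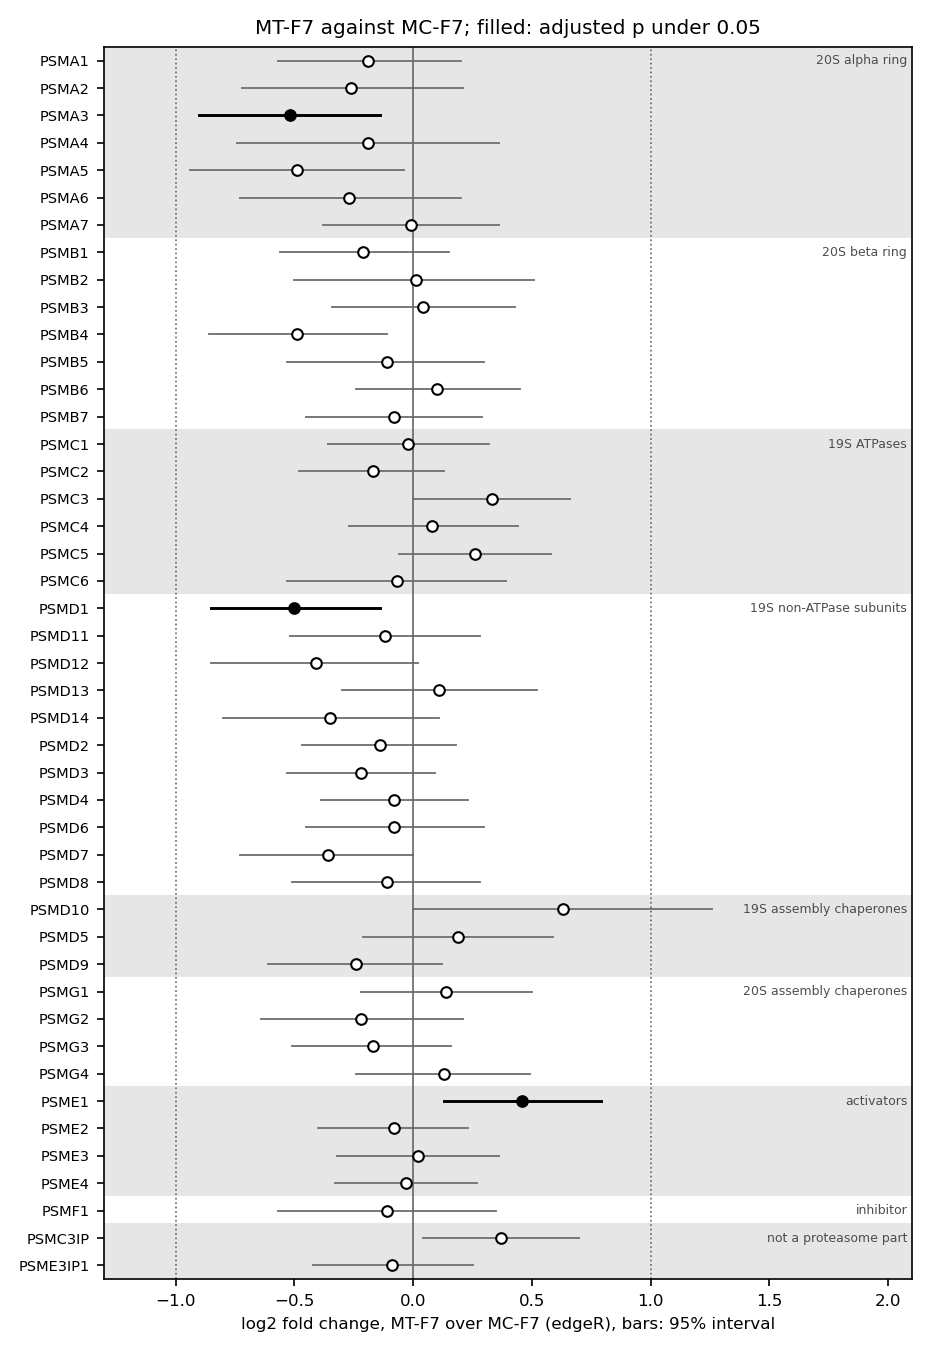
Log2 fold change of MT-F7 over MC-F7 from edgeR for each of the 45 tested genes, by role, with 95% intervals as bars, dotted lines at -1 and 1, and filled points for an adjusted p under 0.05. The 3 filled points are PSMA3 (-0.52), PSMD1 (-0.50) and PSME1 (0.46), and the interval of PSMD10 alone passes 1.

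Summed over all members, the proteasome genes made up 0.583% ± 0.0859 of a library's counts for MC-F7 and 0.554% ± 0.0687 for MT-F7 (SD, n = 3). On the TPM scale the sums were 6131 ± 1000 and 6184 ± 777, a ratio of 1.01, and on the CPM scale with TMM factors they were 5856 ± 833 and 5505 ± 510, a ratio of 0.940. Both differences were smaller than the SD of either group. The 20S core summed to 2579 ± 469 CPM in MC-F7 and 2258 ± 275 CPM in MT-F7, and the 19S particle to 2433 ± 270 and 2362 ± 184 CPM. The ATPases lay slightly higher in MT-F7 (1114 ± 130 and 1219 ± 65.1 CPM), and the non-ATPase subunits slightly lower (1319 ± 150 and 1143 ± 128 CPM). For both groups of subunits the libraries overlapped.

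In the alpha ring 1 of 7 tested subunits passed the test, and the fold changes of all 7 were below 0, with a median of -0.26. The sign of PSMA7 turned with the library sizes taken without TMM factors and with the TPM values, so that 6 of 7 were then below 0, as they were without MT-F7 replicate 3, and 5 of 7 were below 0 without MC-F7 replicate 1 and without either replicate 3 library. PSMA3 had 369, 286 and 295 CPM in MC-F7 and 214, 263 and 185 CPM in MT-F7. In CPM all 3 MT-F7 libraries lay below all MC-F7 libraries, with a narrow gap between 263 and 286 CPM, and in TPM the groups overlapped, with 401 in MT-F7 replicate 2 and 396 in MC-F7 replicate 3. The means were 317 ± 45.3 and 221 ± 39.3 CPM (SD, n = 3), and the log2 fold change was -0.52 (SE 0.174, 95% interval -0.90 to -0.14, adjusted p = 0.0467).

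The call of PSMA3 was close to the threshold and rested on single libraries. It was lost without MC-F7 replicate 1 (log2 fold change -0.40, adjusted p = 0.15), without MC-F7 replicate 2 (-0.59, 0.088), without MT-F7 replicate 1 (-0.51, 0.14) and without MT-F7 replicate 3 (-0.41, 0.099). It was also lost with the library sizes alone (adjusted p = 0.066) and with limma on log2(TPM + 1), where the adjusted p was 0.19. An uncharacterized gene, LOC132346388, overlaps PSMA3 in the RefSeq annotation of ARS-UCD2.0 and was not analysed here.

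PSMA7, the most abundant subunit of the core, had 427, 353 and 320 CPM in MC-F7 and 368, 417 and 309 CPM in MT-F7, and its log2 fold change was -0.01 (SE 0.171, 95% interval -0.38 to 0.36). The 2 most abundant alpha subunits thus differed in their values, and the ratio of PSMA3 to PSMA7 in TPM was taken within each library. It was 0.927, 0.870 and 0.991 in MC-F7 against 0.626, 0.676 and 0.643 in MT-F7. The groups were far apart in this ratio, with means of 0.930 ± 0.0607 and 0.648 ± 0.0256 (SD, n = 3). With 3 libraries against 3, the exact permutation test gave p = 0.1, two-sided, the smallest value that this design allows, and the pair was chosen after its values were seen.

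PSMA5 was the alpha subunit next to PSMA3 in size of change, with 127, 114 and 75.3 CPM in MC-F7 and 88.6, 77.2 and 59.4 CPM in MT-F7. These libraries overlapped, and the log2 fold change of -0.49 (SE 0.207) had an adjusted p of 0.11. PSMA1, PSMA2, PSMA4 and PSMA6 had values between -0.27 and -0.19, and none passed the test.

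None of the 7 beta subunits passed the test, with 3 fold changes above 0, 4 below, and a median of -0.08. The 3 catalytic subunits gave intervals that stayed within -0.53 and 0.45. PSMB5, which cleaves after hydrophobic residues, had 272, 242 and 163 CPM in MC-F7 and 226, 216 and 185 CPM in MT-F7 (log2 fold change -0.11, 95% interval -0.53 to 0.30, adjusted p = 0.71). PSMB6, which cleaves after acidic residues, had 232, 198 and 169 CPM in MC-F7 and 205, 213 and 227 CPM in MT-F7 (0.10, -0.24 to 0.45, adjusted p = 0.68). PSMB7, which cleaves after basic residues, had 239, 214 and 162 CPM in MC-F7 and 212, 195 and 174 CPM in MT-F7 (-0.08, -0.45 to 0.29, adjusted p = 0.78).

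For each catalytic subunit the MT-F7 libraries lay inside the range of the MC-F7 libraries, and the sign of each turned when 1 library was left out. Without MC-F7 replicate 1 the log2 fold changes were 0.04 for PSMB5 and 0.05 for PSMB7, and without MC-F7 replicate 3 it was -0.01 for PSMB6. The intervals do not show equal levels, since changes up to their ends, such as -0.53 for PSMB5, are not excluded.

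PSMB4, a beta subunit without catalytic activity, differed most within the beta ring. It had 542, 467 and 371 CPM in MC-F7 and 352, 342 and 289 CPM in MT-F7, so that all MT-F7 libraries lay below all MC-F7 libraries on this scale. In TPM the groups overlapped, with 425, 385 and 283 in MC-F7 against 298, 298 and 230 in MT-F7. The mean CPM were 460 ± 85.7 and 328 ± 34.1 (SD, n = 3), and the log2 fold change of -0.49 (SE 0.174, 95% interval -0.86 to -0.11) had an adjusted p of 0.0599. It passed the threshold with the Wald test of DESeq2 (adjusted p = 0.032), without MC-F7 replicate 3 (log2 fold change -0.63, adjusted p = 0.014) and without either replicate 3 library (-0.52, 0.0059). PSMB1 (-0.21), PSMB2 (0.01) and PSMB3 (0.04) did not pass the test. PSMB3 overlaps PCGF2, and PSMB5 overlaps PSMB11, in the RefSeq annotation of ARS-UCD2.0, and PCGF2 itself was higher in MT-F7 (log2 fold change 0.50, adjusted p = 0.026).

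The 6 ATPases form the ring that unfolds substrates and opens the gate of the core, and none of them passed the test. Their median log2 fold change was 0.03, with 3 above and 3 below 0. PSMC3 had the highest value of the ring. It had 348, 293 and 277 CPM in MC-F7 and 365, 406 and 379 CPM in MT-F7, and the groups did not overlap. The log2 fold change was 0.33 (SE 0.153, 95% interval 0.00 to 0.66, adjusted p = 0.14). PSMC5 was ordered in the same way, with 257, 209 and 217 CPM in MC-F7 and 266, 279 and 274 CPM in MT-F7 (log2 fold change 0.26, adjusted p = 0.23). PSMC2 had the lowest value of the ring, with 179, 166 and 169 CPM in MC-F7 and 163, 153 and 141 CPM in MT-F7 (-0.17, SE 0.141, adjusted p = 0.42). The groups of PSMC2 lay apart in CPM and overlapped in TPM, while those of PSMC3 and PSMC5 lay apart on both scales. PSMC1 (-0.02), PSMC4 (0.08) and PSMC6 (-0.07) overlapped between the groups.

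Of the 11 non-ATPase subunits of the 19S particle, 1 passed the test, and 10 had a fold change below 0, with a median of -0.14. PSMD1 had 169, 179 and 148 CPM in MC-F7 and 133, 123 and 95.4 CPM in MT-F7. All MT-F7 libraries lay below all MC-F7 libraries, with replicate 3 the lowest of each group. In TPM the gap was narrow, between 58.7 in MT-F7 replicate 1 and 59.0 in MC-F7 replicate 3. The means were 165 ± 15.7 and 117 ± 19.7 CPM (SD, n = 3), and the log2 fold change was -0.50 (SE 0.164, 95% interval -0.85 to -0.14, adjusted p = 0.0448). HTR2B, which overlaps PSMD1 in the RefSeq annotation of ARS-UCD2.0, had at most 2 counts in any library.

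The call of PSMD1 was kept without MC-F7 replicate 3 (log2 fold change -0.57, adjusted p = 0.029) and lost without any other single library. The log2 fold change was then -0.48 without MC-F7 replicate 1, -0.43 without MC-F7 replicate 2, -0.60 without MT-F7 replicate 1, -0.53 without MT-F7 replicate 2 and -0.37 without MT-F7 replicate 3, with adjusted p between 0.056 and 0.19. It was also lost with library sizes alone (adjusted p = 0.067) and on the TPM scale (adjusted p = 0.18 with limma on log2(TPM + 1)).

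PSMD2, the other large scaffold subunit, had 184, 182 and 147 CPM in MC-F7 and 163, 152 and 149 CPM in MT-F7 (log2 fold change -0.14, SE 0.150). Both scaffolds are present in the same number in the 19S particle, and their ratio in TPM was taken within each library. The ratio of PSMD2 to PSMD1 was 1.15, 1.07 and 1.05 in MC-F7 against 1.30, 1.31 and 1.65 in MT-F7. All MT-F7 ratios were above all MC-F7 ratios (1.09 ± 0.0547 and 1.42 ± 0.200, SD, n = 3, exact permutation test p = 0.1, two-sided, the smallest value possible, in a pair chosen after its values were seen).

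PSMD7 and PSMD14 form the deubiquitinating pair of the 19S lid. PSMD7 had 84.0, 73.5 and 71.9 CPM in MC-F7 and 66.6, 64.9 and 46.7 CPM in MT-F7, and its log2 fold change was -0.36 (SE 0.168, adjusted p = 0.14). PSMD14, which carries the active site, had 70.4, 60.7 and 45.3 CPM in MC-F7 and 54.0, 51.9 and 32.9 CPM in MT-F7 (-0.35, SE 0.212, adjusted p = 0.27). In CPM the libraries of PSMD7 did not overlap between the groups and those of PSMD14 did. PSMD3, a subunit of the lid, also did not overlap in CPM, with 226, 209 and 187 CPM in MC-F7 and 182, 175 and 178 CPM in MT-F7 (-0.22, adjusted p = 0.31). In TPM the groups of PSMD7 and PSMD3 overlapped. PSMD12 had -0.41 (SE 0.201, adjusted p = 0.16).

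PSMD13, a lid subunit, was the non-ATPase subunit with a fold change above 0, with 16.4, 20.4 and 21.9 CPM in MC-F7 and 26.1, 18.8 and 18.4 CPM in MT-F7 (0.11, SE 0.189, adjusted p = 0.72). A single MT-F7 library lay above the range of MC-F7, and the value was -0.08 without it. In ARS-UCD2.0 the RefSeq annotation of PSMD13 overlaps NBAS, which had 630 to 785 counts in these libraries. PSMD4, PSMD6, PSMD8 and PSMD11 had values between -0.12 and -0.08, and each overlapped between the groups.

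The chaperones of the 19S base, which hold the ATPases apart until the ring closes, were PSMD5, PSMD9 and PSMD10, and none passed the test. PSMD10, known as gankyrin, was the tested member with the lowest TPM, and it had the highest fold change. It had 3.94, 3.19 and 1.87 CPM in MC-F7 and 5.02, 4.98 and 3.95 CPM in MT-F7, and the lowest MT-F7 library lay just above the highest MC-F7 library. The log2 fold change was 0.63 (SE 0.291, 95% interval 0.00 to 1.26, adjusted p = 0.14), so the interval reached from no difference to more than a doubling. PSMD9 had 22.4, 21.9 and 16.6 CPM in MC-F7 and 17.1, 17.3 and 17.2 CPM in MT-F7 (-0.24, adjusted p = 0.33). PSMD5 had 0.19 (SE 0.185, adjusted p = 0.5).

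The chaperones that build the alpha ring work as the pairs PSMG1 with PSMG2 and PSMG3 with PSMG4. None of the 4 passed the test, and their median was -0.02. PSMG1 had the highest fold change (0.14, SE 0.167) and PSMG2 the lowest (-0.22, SE 0.197), so the members of this pair had opposite signs, with intervals that both included 0. PSMG3 (-0.17) and PSMG4 (0.13) likewise had opposite signs, and the libraries of all 4 overlapped between the groups.

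The activators other than the 19S cap are the ring of PSME1 and PSME2, which interferon induces in many cells, the nuclear ring of PSME3, and the large single chain of PSME4. Of these 4 genes only PSME1 passed the test. PSME1 had 56.2, 46.8 and 43.9 CPM in MC-F7 and 66.9, 71.4 and 64.0 CPM in MT-F7, and all MT-F7 libraries were above all MC-F7 libraries. The means were 49.0 ± 6.45 and 67.4 ± 3.70 CPM (SD, n = 3), and the log2 fold change was 0.46 (SE 0.152, 95% interval 0.13 to 0.79, adjusted p = 0.0437). EMC9, which overlaps PSME1 in the RefSeq annotation of ARS-UCD2.0, had 205 to 289 counts and a log2 fold change of 0.04 (adjusted p = 0.9).

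PSME1 was called on the TPM scale as well, with a log2 fold change of 0.54 (limma on log2(TPM + 1), adjusted p = 0.045). It lost the call without MC-F7 replicate 2 (0.43, adjusted p = 0.17), without MC-F7 replicate 3 (0.38, 0.11), without MT-F7 replicate 1 (0.46, 0.12) and without MT-F7 replicate 2 (0.42, 0.14). In each of these the fold change stayed above 0.

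PSME2, the partner of PSME1 in the same ring, had 73.9, 64.4 and 58.8 CPM in MC-F7 and 61.0, 64.8 and 60.2 CPM in MT-F7 (-0.08, SE 0.147, 95% interval -0.40 to 0.23, adjusted p = 0.73). The libraries of PSME2 overlapped, in contrast to those of its partner. Within each library the ratio of PSME1 to PSME2 in TPM was 0.623, 0.595 and 0.610 in MC-F7 against 0.897, 0.902 and 0.871 in MT-F7. The ratio varied little within a group, with means of 0.609 ± 0.0137 and 0.890 ± 0.0164 (SD, n = 3), and the difference was many times the SD. The exact permutation test again gave p = 0.1, two-sided, the smallest value possible, in a pair chosen after its values were seen.

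PSME3 and PSME4 had fold changes near 0 (0.02 with SE 0.156, and -0.03 with SE 0.139). PSMF1, which binds the 20S core and inhibits it in vitro, had 18.6, 12.6 and 10.8 CPM in MC-F7 and 13.3, 14.1 and 11.5 CPM in MT-F7 (-0.11, SE 0.212, adjusted p = 0.76). Its value turned to 0.15 without MC-F7 replicate 1, the highest library.

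Of the matches that are not proteasome parts, PSMC3IP encodes a protein of meiotic recombination, and PSME3IP1 a nuclear protein that binds PSME3. PSMC3IP had 23.9, 24.0 and 22.4 CPM in MC-F7 and 31.5, 32.0 and 27.2 CPM in MT-F7, without overlap (log2 fold change 0.37, SE 0.152, adjusted p = 0.099). PSME3IP1 had -0.09 (SE 0.153, adjusted p = 0.73). Leaving both out does not change the number of proteasome genes that passed the test.

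The spread between libraries of the same group was shared by most members. Replicate 3 had the lowest CPM of its group for 38 of 45 members (84.4%) in MC-F7 and for 38 of 45 in MT-F7, while this held for 40.6% and 40.5% of all tested genes. It was the lowest in both groups for 32 members (71.1%) against 25.8% of all genes. The median log2 difference of replicate 3 from the mean of the other replicates was -0.33 in MC-F7 and -0.31 in MT-F7 over the members, and -0.01 and 0.02 over all genes. For comparison, the log2 fold change between MT-F7 and MC-F7 had a median of -0.09 over the members with its sign, and of 0.17 in absolute value. Replicate 3 also had the highest share of mitochondrial counts in both groups, and the part of that share in the member values was not tested.

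This deviation differed in size between roles. For the alpha ring the median deviations from the gene mean were 0.44, 0.19 and -0.21 in the MC-F7 libraries and 0.04, 0.00 and -0.51 in the MT-F7 libraries. For the ATPases they were 0.15, 0.00 and -0.24 in MC-F7 against 0.10, 0.16 and -0.08 in MT-F7. The activators moved least among the larger roles, with 0.06, 0.02 and -0.15 in MC-F7 against 0.07, 0.06 and -0.06 in MT-F7. In all 3 roles the lowest library of each group was replicate 3, and over all tested genes the median deviation of no library exceeded 0.02. With replicate 3 of both groups left out, 7 members passed the threshold, 2 higher and 5 lower, where 32.4% of all genes did so in the same fit.

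**Figure D3:**
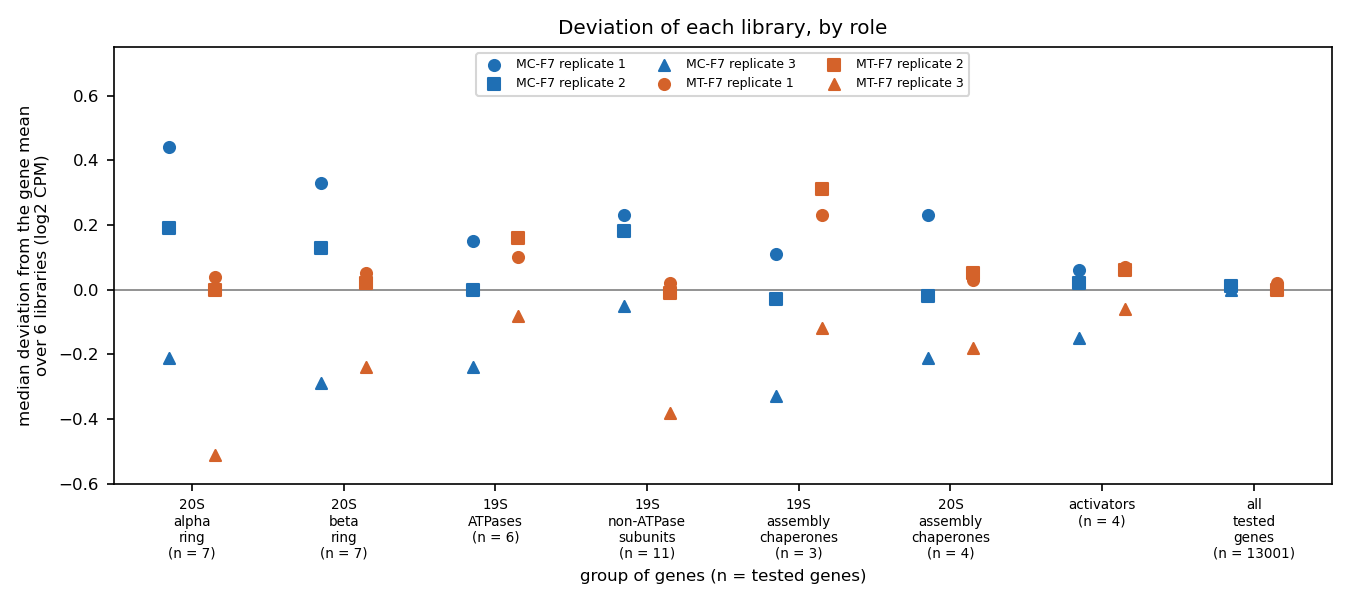
Median deviation of each library from the gene mean over 6 libraries, in log2 CPM, for the genes of each role and for all 13001 tested genes, with blue for MC-F7, orange for MT-F7 and triangles for replicate 3. Replicate 3 is the lowest library of its group in every role shown, down to -0.51 for the alpha ring in MT-F7, while the points of all tested genes lie near 0.

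Around the proteasome, 33 other genes of the ubiquitin-proteasome system were listed, of which 32 were tested and UBQLN4 was not analysed here. In this list 0 genes were higher and 2 were lower by edgeR's test (8 of the 32 fold changes were above 0), where 23.2% of all tested genes passed, and 7 had an unadjusted p under 0.05, against 35.8% of all genes. DESeq2 called 0 higher and 4 lower, and 20.5% of all genes. The median log2 fold change of the list was -0.13. The larger differences among these genes concerned PSMB8 and DDI2, and the fold changes of both were larger than any within the constitutive proteasome.

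PSMB8, which replaces PSMB5 in the immunoproteasome, had 10.5, 8.25 and 12.0 CPM in MC-F7 and 4.14, 2.86 and 3.10 CPM in MT-F7. It fell from 10.2 ± 1.87 to 3.37 ± 0.683 CPM (SD, n = 3), to 0.330 of the MC-F7 level (log2 fold change -1.60, SE 0.234, adjusted p = 0.00034). Its ratio to PSMB5 in TPM was 0.0757, 0.0670 and 0.144 in MC-F7 against 0.0361, 0.0261 and 0.0330 in MT-F7, so the constitutive gene was the more abundant of the pair in every library. PSMB10, which replaces PSMB7, had 31.0, 27.5 and 28.8 CPM in MC-F7 and 32.3, 33.8 and 42.0 CPM in MT-F7 (0.31, SE 0.160, adjusted p = 0.19), and PSMB9, which replaces PSMB6, stayed between 0.502 and 1.53 CPM in all libraries (-0.13, SE 0.495, adjusted p = 0.88). Of the exchangeable subunits only PSMB8 passed the test, and differences between their fold changes were not tested.

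**Figure D4:**
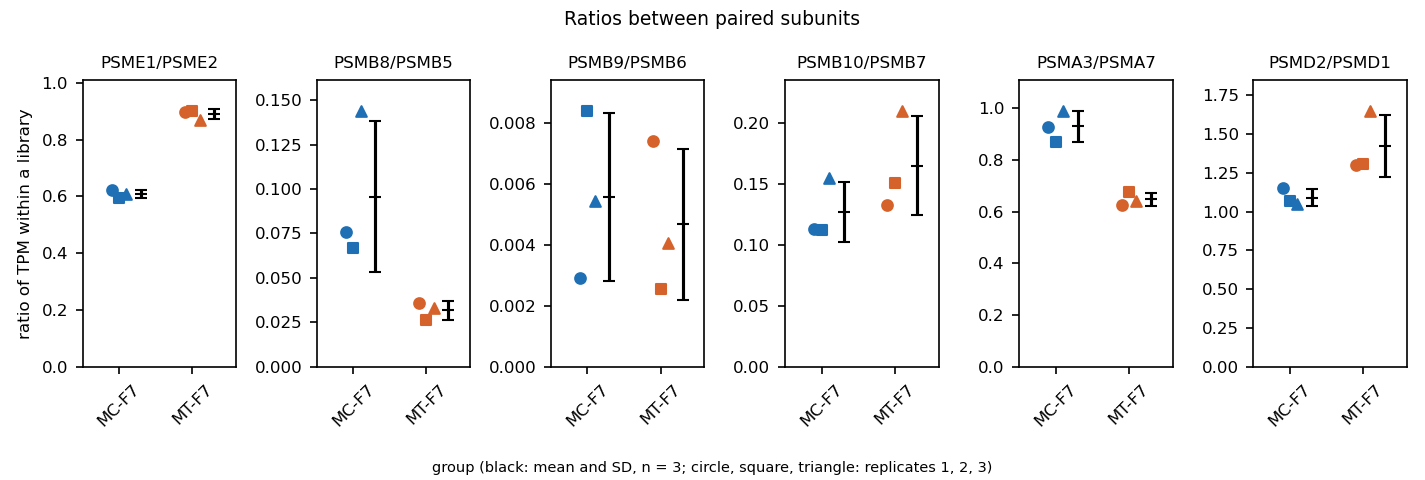
Ratio of TPM within each library for 6 pairs of genes (y axes linear from 0, each with its own scale), with 1 point for each of the 3 MC-F7 (blue) and 3 MT-F7 (orange) libraries and black bars for the mean and SD. PSME1 over PSME2 is at 0.595 to 0.623 in MC-F7 and at 0.871 to 0.902 in MT-F7, and PSMB8 over PSMB5 is lower in all MT-F7 libraries. The groups overlap for PSMB9 over PSMB6 and for PSMB10 over PSMB7.

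DDI2, a protease that cleaves the transcription factor NFE2L1, had 36.3, 47.8 and 62.0 CPM in MC-F7 and 16.5, 16.2 and 20.8 CPM in MT-F7. It fell from 48.7 ± 12.9 to 17.8 ± 2.55 CPM (SD, n = 3; log2 fold change -1.45, SE 0.204, adjusted p = 0.00027). NFE2L1, which drives transcription of proteasome genes, had 91.6, 91.2 and 73.1 CPM in MC-F7 and 87.3, 74.7 and 85.3 CPM in MT-F7 (-0.05, SE 0.152, adjusted p = 0.85). NFE2L2, a transcription factor listed with it, had 42.3, 46.7 and 52.7 CPM in MC-F7 and 36.4, 35.8 and 31.3 CPM in MT-F7, without overlap. Its log2 fold change of -0.45 (SE 0.154) had an adjusted p of 0.0502, just above 0.05, so NFE2L2 did not pass the test. NGLY1, listed with both, had -0.05 (adjusted p = 0.88). POMP, the maturation protein of the 20S core, had 280, 225 and 167 CPM in MC-F7 and 210, 239 and 148 CPM in MT-F7 (-0.17, SE 0.215, adjusted p = 0.62), with replicate 3 the lowest in each group as for most subunits. Over the whole list, replicate 3 was the lowest of both groups for 12 of 32 genes (37.5%), against 71.1% of the members and 25.8% of all tested genes.

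The 12 proteins that bind the proteasome outside the symbol rule had a median log2 fold change of -0.18, with 8 below 0 and none past the threshold by edgeR (4 at an unadjusted p under 0.05). Of the shuttle receptors, which carry ubiquitinated proteins to the 19S cap, DDI2 was the 1 of 5 that passed. The 4 ubiquitin genes, the 2 ubiquitin-activating enzymes and the 3 genes of the VCP segregase had medians of -0.05, -0.10 and -0.10, and none of these 9 genes passed the test.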

How the data were processed

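Per the labels and methods, libraries were made with a kit that does not mark strand, and reads were filtered by the authors, aligned with HISAT2 2.0.5 to the bovine genome and counted per gene with featureCounts 1.5.0-p3. The build and the handling of reads shared by overlapping genes are not given in the sources used here, and 14 of the 46 members overlap another gene in the RefSeq annotation of ARS-UCD2.0, so their counts are uncertain to that extent. The authors deposited raw counts per Entrez gene, and 19074 of 19163 identifiers were paired with symbols. The authors also deposited a TPM table of 21653 lines, in which 159 Ensembl identifiers stood on several lines. Its libraries added up to 154763 to 164394, and for 9681 of 9682 genes with at least 50 counts TPM over counts agreed between libraries within 1%, so each library was rescaled to 1000000.

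Genes were filtered with filterByExpr (minimum count 10, minimum total count 15), which left 13001, and scaled by TMM (factors 0.971 to 1.04). The MT-F7 counts were set against those of MC-F7, with 3 libraries each and no block, by the two-sided quasi-likelihood test of edgeR 4.0.16 (R 4.3.3, common dispersion 0.0342), with p values adjusted over all tested genes by the Benjamini-Hochberg method and a threshold of 0.05. CPM used TMM library sizes. Ratios within a library were compared by exact permutation, and 6 pairs were computed. In simulated data with 200 genes changed 2-fold, 169 (84.5%) were recovered, with 5 false calls. The simulation gave every gene the common dispersion and held no deviation shared between genes, such as that of replicate 3. Its figures therefore do not cover such spread. Recovery of smaller changes, such as those of the members (absolute log2 fold change at most 0.63), was not tested. Counting precision covers reads, not molecules.

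The members and lists were chosen with earlier results of these data known. Named were members past the threshold, the extremes of each role, the catalytic subunits, the 3 core subunits with the highest and the 3 with the lowest TPM, members not tested, PSMC3IP, PSME3IP1, PSMB8, PSMB9, PSMB10, NFE2L1, POMP and listed genes past the threshold; other genes were named after their values were seen. Alternatives were RLE factors, library size only, DESeq2 1.42.0, other filters, a replicate block, leaving out each library, and limma 3.58.1 on log2 TPM. The removal of both replicate 3 libraries, the removal of the mitochondrial genes, which left the number of members called at 3, and the overlap of groups in TPM were chosen after seeing the data. Figures used Python 3.11.15 and matplotlib 3.10.9.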

Additional observations from a re-analysis of the deposited data

How the results depend on the processing

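Of 456 values of 27 named genes over 17 alternative settings, 391 kept their direction and side of the threshold, 21 lost a call, 7 gained one and 37 changed sign, none of the last for a gene past the threshold. The cause was not tested. The number of members called, 3 (1 higher, 2 lower), was 1 (1 higher, 0 lower) with library size only and with each of 3 limma fits on TPM, and 7 (2 higher, 5 lower) without either replicate 3 library. The 7 include PSMC3IP, which is not a proteasome part. Leaving out single libraries gave 0 to 4 (0 to 1 higher, 0 to 4 lower). Over all tested genes the share called was 23.2%, and it was 22.8% with library size only, 14.1% to 20.6% in the limma fits, 32.4% without either replicate 3 library and 14.5% to 23.4% without single libraries. The 11 members whose groups did not overlap in CPM were 6 in TPM, a scale added after the data had been seen. The median of the members ran from -0.20 to 0.00 without single libraries. The 2 other ubiquitin-proteasome genes (0 higher, 2 lower) became 4 with DESeq2 (4 lower), 5 (1 higher, 4 lower) without either replicate 3 library and 1 (1 lower) in each limma fit, in which DDI2 had no TPM value. Leaving out single libraries gave 0 to 1 higher.

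The labels give both groups replicate numbers 1 to 3, and the deviations of libraries with the same number correlated at 0.127, 0.041 and 0.392. Between different numbers the correlations ran from -0.305 to 0.257, the highest being MC-F7 replicate 1 with MT-F7 replicate 2. The replicate 3 libraries thus deviated alike, while replicates 1 and 2 did not match best by number. A pairing is not stated, and the test used here had no block. A deviation shared by the replicate 3 libraries counts in it as spread within a group. With the replicate number as a block, 10 members (3 higher, 7 lower) and 8 genes of the other list (1 higher, 7 lower) were called, against 36.0% of all tested genes. The members included PSMB4 (adjusted p = 0.0072) and PSMC3IP, which is not a proteasome part.

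Changes of sign concerned log2 fold changes near 0. Leaving out single libraries gave -0.15 to 0.02 for NFE2L1, -0.35 to 0.03 for POMP, -0.11 to 0.12 for PSMA7, -0.31 to 0.04 for PSMB5, -0.01 to 0.23 for PSMB6, -0.23 to 0.05 for PSMB7, -0.58 to 0.32 for PSMB9, -0.25 to 0.03 for PSMD11, -0.08 to 0.19 for PSMD13, -0.16 to 0.01 for PSME2 and -0.26 to 0.15 for PSMF1. With library size only PSMA7 had 0.01. Without either replicate 3 library the values were 0.00 for PSMA1, 0.03 for PSMA7, -0.03 for PSMB6 and 0.03 for PSME3IP1. In the limma fits they were 0.03 to 0.04 for NFE2L1, 0.07 for PSMA7, 0.02 for PSMB7, 0.00 for PSME2 and 0.01 for PSMF1.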
